A study of Homo sapiens with 12 samples.

Results

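SKA2 hairpin 3 was compared with a control hairpin in SNU638, an established line of human stomach cancer cells. The comparison rests on 6 of the 12 RNA-seq libraries of the series, taken by their titles: 3 of the line with hairpin 3 and 3 of the line with the control hairpin. All 4 lines of the series were infected with lentivirus, and clones resistant to puromycin were selected from each, so the control cells had been through infection and drug selection too. The labels do not say how many clones make up a line. The other 6 libraries, 3 of a line with hairpin 1 and 3 of a line with hairpin 2 against the same gene, served to estimate the spread between libraries and to test where hairpin 3 differed from them. The series asked which genes SKA2 regulates in gastric cancer cells. Each hairpin is present in 1 line, so an effect of the hairpin cannot be told apart from a property of its line. Whether the libraries of a line stem from different cultures is not in the labels, so the spread that the p-values measure, that among these libraries, may be technical.

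SKA2 is the smallest subunit of the spindle and kinetochore associated (SKA) complex, which it forms with SKA1 and SKA3. The complex binds microtubules and the NDC80 complex at the outer kinetochore and keeps chromosomes attached to the spindle while they are pulled apart in mitosis. ATF4, whose pathway holds many of the genes described below, is a transcription factor whose translation goes up when the initiation factor eIF2 is phosphorylated, as in amino acid shortage or endoplasmic reticulum (ER) stress. With partners such as CEBPB and CEBPG it drives genes for amino acid uptake, amino acid synthesis and tRNA charging.

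The libraries of the series held between 14693323 and 16739147 counts, and 12868 of 17303 genes passed the expression filter. Levels are given as CPM, a gene's counts scaled to a fixed library total after TMM normalization. Log2 fold changes are hairpin 3 over control with their standard errors (SE, 3 libraries per line), and a gene is said to rise or fall where the adjusted p of edgeR's quasi-likelihood test was under 0.05. The first control library and the first hairpin 3 library stood apart from the other libraries of their lines along the GC content of the transcripts. The median deviation of GC-rich genes minus that of GC-poor genes (highest and lowest quartile, log2) was 0.22, 0.60 and 0.84 in the control libraries and -0.43, 0.14 and 0.22 in the hairpin 3 libraries. Of the genes in the lowest GC quartile 41.3% rose and 9.19% fell, and of those in the highest 7.59% rose and 43.4% fell. With each library's trend along length and GC content taken out as an offset, 4718 of the 6122 calls were made again in the same direction and 2 in the opposite one. The part of GC content in the results was not tested further. Epithelial markers summed to between 2591 and 3490 CPM per control library and between 2047 and 2726 CPM per hairpin 3 library, nearly all from keratins and EPCAM, while the epithelial cadherin CDH1 and the claudin CLDN4 were low (group means of at most 7.64 and 0.74 CPM). Markers of T, B and endothelial cells, macrophages and fibroblasts summed to at most 26.2 CPM per list and library, the highest sums being mostly CD68. Its group means were 23.5 CPM in the control and 22.8 CPM with hairpin 3. COL1A1 (7.66 and 4.69 CPM), CD79A (4.57 and 2.71), CD8A (2.17 and 2.44) and PAX5 (1.11 and 1.16) were present too. By contrast CD3D, CD3G, COL1A2 and KDR were at 0 in all 6 libraries.

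SKA2 was lower in each hairpin 3 library than in any control library. Its level was 126, 119 and 117 CPM in the 3 control libraries and 24.9, 26.9 and 28 CPM in the 3 hairpin 3 libraries, from between 1831 and 1989 reads and between 383 and 443 reads per library. The means were 120.5 ± 4.84 and 26.6 ± 1.57 CPM (SD, n = 3), a fall of 77.9%. The log2 fold change was -2.18 ± 0.08 (adjusted p = 8.24e-09 in edgeR). A permutation test over the libraries, exact and two-sided, gave p = 0.1, which is as low as 3 against 3 can go. The 2 groups were far apart beside their spread. As these are bulk samples, fewer cells of a kind and less RNA per cell cannot be told apart, here or in any result below.

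The gene lies on the minus strand of chromosome 17 (chr17:59109951-59155269, GRCh38, GENCODE v29). The window of 300 bases around its start (250 before to 50 after, RefSeq, GRCh38.p14, chr17:59155137-59155436, minus strand) is shown because the neighbour PRR11 starts in the other direction close by, with 59 bases between the windows of the genes, and the data give a level for each. Capitals mark CCAAT, searched on both strands as CCAAT and ATTGG. The window holds 5 matches, all CCAAT. Of the tested genes with a window, 37.0% hold at least 1 match and 0.56% hold at least 5.
SKA2: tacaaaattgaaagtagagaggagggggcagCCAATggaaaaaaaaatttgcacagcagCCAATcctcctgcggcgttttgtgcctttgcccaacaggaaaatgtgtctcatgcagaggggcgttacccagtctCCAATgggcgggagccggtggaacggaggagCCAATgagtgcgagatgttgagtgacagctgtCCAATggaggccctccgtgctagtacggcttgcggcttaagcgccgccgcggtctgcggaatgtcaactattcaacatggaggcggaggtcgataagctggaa

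SKA1, the microtubule-binding subunit, fell with SKA2. It was at 78.2, 82.5 and 78.8 CPM in the control libraries and at 53.9, 47.5 and 47.7 CPM with hairpin 3, without overlap, and its log2 fold change was -0.68 ± 0.07. SKA3, the subunit that is phosphorylated to bind NDC80, was at 86.8, 85.3 and 84.1 CPM and 85.7, 83.4 and 83.8 CPM, so the libraries of the 2 lines overlapped. Its log2 fold change was -0.02 ± 0.06 (adjusted p = 0.827 in edgeR), and with length and GC offsets it was -0.20 and passed the test. PRR11, a cell-cycle gene read from the start next to that of SKA2, was at 118, 94.7 and 82.4 CPM and 127, 88.5 and 85.8 CPM, with a log2 fold change of 0.03 ± 0.15 (adjusted p = 0.889 in edgeR). The first library was the highest of its line in both groups for PRR11. A change of this head-to-head neighbour of SKA2 was not detectable beside the spread between libraries.

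**Figure D1:**
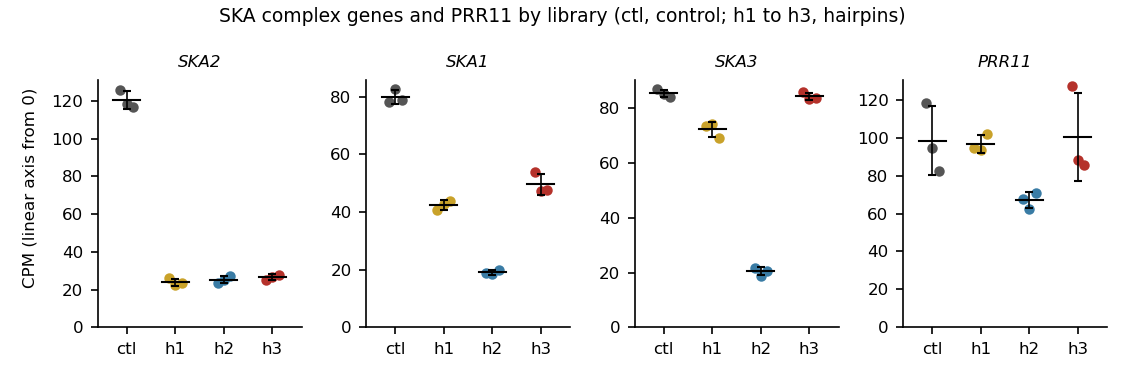
Levels of SKA2, SKA1, SKA3 and PRR11 in CPM (linear axis from 0) for each of the 12 libraries, with the mean and SD of each line (n = 3; ctl, control; h1 to h3, hairpins). SKA2 is at 24.9 to 28 CPM with hairpin 3 and at 117 to 126 CPM in the control, whereas the hairpin 3 libraries of SKA3 and PRR11 overlap those of the control.

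The outer kinetochore genes were split. Over the whole comparison 3036 genes rose, 23.6% of those tested, and 3086 fell, 24.0%, whereas a fit of only these 6 libraries called 1590 and 1868. Of the 13 tested genes of the SKA complex and outer kinetochore 6 rose and 3 fell, with a median log2 fold change of 0.22 (0.13 and 3 and 4 called with length and GC offsets, 0.13 without the first hairpin 3 library, 3 higher in a fit of only these 6 libraries), beside 0.0086 over all tested genes. SPC24, an NDC80 complex subunit, fell with SKA1 and SKA2, from 43.6, 54.7 and 58.7 CPM to 29.8, 32.2 and 35.5 CPM (-0.69 ± 0.11, -0.42 with the offsets). NDC80 itself, the subunit that touches the microtubule, was at 58.8, 56.2 and 55.6 CPM and 72.1, 64.7 and 64.4 CPM (0.24 ± 0.07), and this small rise was absent with length and GC offsets (-0.02) and missed the threshold in a fit of only these 6 libraries (adjusted p = 0.0848 in edgeR).

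Among called genes with a mean of at least 1 CPM and no overlap between the lines, the largest falls were further from 0 than the largest rises. These conditions were met by 2451 of the 3036 rises and 2681 of the 3086 falls. A lack of overlap is thus common among called genes, here and in the paragraphs below. Genes that changed at least 2-fold numbered 420 higher (3.26% of those tested) and 497 lower (3.86%), and without the first control library the former count was 699. In limma's fit of log2(TPM + 1), where the median of all tested genes was 0.124 in place of 0.0086, 3219 genes rose and 2071 fell, so that 60.9% of the calls were rises. With both first libraries left out, 3980 rose and 3732 fell, and 5910 of the 6122 calls were made again.

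ROBO4, a receptor best known from blood vessel endothelium, was at 2.28, 2.26 and 1.79 CPM in the control libraries and at 0, 0.0633 and 0 CPM with hairpin 3, where a single read was counted in all 3 libraries against 99 in the control. The ratio of control to hairpin 3 was 94.7, with an exact 95% interval of 16.6 to 3777 that covers counting error only. INHBE, which encodes a subunit of activin E, went from 14.6, 14.4 and 14.2 CPM to 0.325, 0.253 and 0.569 CPM (-5.2 ± 0.24). TRIB3, a pseudokinase induced by ATF4 that restrains it in turn, went from 412, 485 and 541 CPM to 15.1, 19.4 and 20.4 CPM (-4.71 ± 0.14). The hairpin 3 libraries of all 3 genes lay far below the control libraries, with little spread within a line.

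Falls of similar size were seen for NUPR1, a stress-induced chromatin protein (-4.19 ± 0.45), ADM2, which encodes the peptide hormone intermedin (-4.17 ± 0.16), and KLHDC7B, a kelch-domain gene (-4.69 ± 0.53). CCL20, a chemokine for CCR6-bearing lymphocytes, went from 9.31, 10.7 and 10.7 CPM to 0.52, 0.506 and 0.695 CPM (-4.14 ± 0.18). IL1RL1, the receptor of interleukin-33, went from 18.5, 22.1 and 21.1 CPM to 1.24, 1.08 and 1.52 CPM (-4.00 ± 0.18). HKDC1, a hexokinase family member (-3.78 ± 0.19), MIOX, which breaks down myo-inositol (-3.91 ± 0.63), and MYCT1, a MYC target (-3.77 ± 0.39), were among the 12 largest falls, as was EIF3CL. EIF3CL (-5.42 ± 1.04) is nearly identical to EIF3C, its control libraries spread over 4.94, 32.1 and 43.2 CPM, and its value is uncertain since reads may be shared between the copies.

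The 12 largest rises were in genes at lower levels. DNAAF1, needed to assemble the dynein arms of cilia, was at 0.0633, 0.129 and 0.319 CPM in the control libraries and at 2.28, 2.72 and 2.97 CPM with hairpin 3 (3.9 ± 0.40). SCG2, a precursor of neuropeptides in secretory granules, went from 0.95, 1.94 and 1.72 CPM to 12.7, 12.2 and 12.6 CPM (3.02 ± 0.17). BMF, a BH3-only protein that promotes apoptosis, went from 2.53, 2.13 and 1.98 CPM to 15, 15.4 and 16.2 CPM (2.81 ± 0.11). The groups did not overlap in these 3 genes, which was a condition of their choice. The transcription factor gene MEF2C (2.84 ± 0.30) and SAMD11 (3.00 ± 0.26) were among the largest rises. Signalling genes among them were SMAD6, an inhibitor of BMP signalling (2.69 ± 0.18), MAP2K6, a kinase of p38 (2.65 ± 0.17), and the ligand gene WNT16 (2.49 ± 0.17). CYP26A1, which breaks down retinoic acid (2.78 ± 0.20), CCDC170 (2.52 ± 0.20) and HMCN1, an extracellular matrix gene (2.56 ± 0.33), belonged to them as well.

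**Figure D2:**
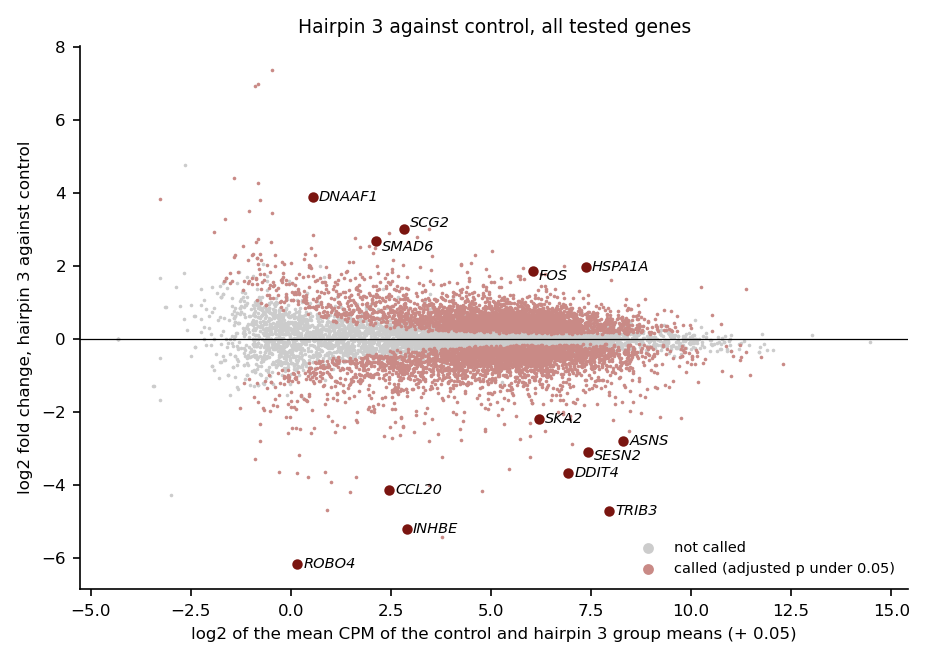
Log2 fold change of hairpin 3 over control (vertical) against the log2 mean CPM of the 2 group means with 0.05 added (horizontal) for all 12868 tested genes, with called genes in pale red, others in grey and a choice of genes from the text in dark red. TRIB3 (-4.71) and INHBE (-5.20) lie near the lower edge, the gene furthest down is ROBO4, and the points above 4 are genes at a mean under 1 CPM.

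The genes of the ATF4 pathway fell more often than they rose, and many of them by a large amount. Of the 22 tested members of the list of ATF4 and its regulators 12 fell and 5 rose, with a median log2 fold change of -0.66. These were 54.5% and 22.7%, beside 24.0% and 23.6% of all tested genes. Without the second control library 2 members rose, without the third 3, and in a fit of only these 6 libraries 2. ATF4 transcript was at 688, 804 and 850.1 CPM in the control libraries and at 260.1, 333 and 348 CPM with hairpin 3 (-1.32 ± 0.11). Its partner CEBPB went from 105, 110.5 and 107 CPM to 15.9, 18.2 and 17.3 CPM (-2.65 ± 0.09). No hairpin 3 library came near a control library for either gene. CEBPG, which pairs with ATF4 on amino acid response elements, fell from 154, 152 and 159.9 CPM to 58.7, 58.6 and 61.2 CPM (-1.38 ± 0.06). JDP2, a basic leucine zipper repressor, fell as well (-2.46 ± 0.11), as did NFE2L1, the factor that restores proteasome genes (-1.35 ± 0.05).

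The genes that ATF4 turns on in prolonged stress were lower too. DDIT3, which encodes the transcription factor CHOP, was at 128, 169 and 191 CPM and 31.6, 44.4 and 46.6 CPM (-1.99 ± 0.16). PPP1R15A, the phosphatase subunit that removes the phosphate from eIF2, was at 863, 981 and 1094 CPM and 199, 232 and 236 CPM (-2.14 ± 0.09). ATF3 (-0.75 ± 0.08) and ATF5 (-0.57 ± 0.09, -0.20 with length and GC offsets) fell by less. TRIB2, another pseudokinase, rose from a low level of 0.507, 0.582 and 0.191 CPM to 1.89, 2.28 and 1.77 CPM (2.19 ± 0.38). Its relative TRIB3 had the largest fall of the list.

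None of the 4 kinases that phosphorylate eIF2 was called lower here. EIF2AK1, the heme-regulated kinase, rose from 171, 157 and 155 CPM to 199.6, 203 and 201 CPM (0.32 ± 0.06). EIF2AK4, the kinase activated by uncharged tRNA, had a log2 fold change of 0.36 ± 0.13 with overlapping libraries, and its call was lost without the second (0.34) or the third control library (0.30), without the first hairpin 3 library (0.18), with limma on TPM and in a fit of only these 6 libraries, while the offsets gave 0.21. EIF2AK3, the kinase of the ER membrane, had a log2 fold change of 0.28 ± 0.14 (adjusted p = 0.124 in edgeR). It passed the test without the first control library (0.38), without the third hairpin 3 library (0.39) and with replicate number as a block in these 6 libraries (0.28), and its value was 0.06 with length and GC offsets and 0.11 without the first hairpin 3 library. EIF2AK2, the kinase activated by double-stranded RNA, had -0.07 ± 0.16 (adjusted p = 0.735 in edgeR) and was called lower with length and GC offsets (-0.30). Of the 4, EIF2AK1 alone was called in the same direction under each alternative that was run.

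Enzymes of serine synthesis and mitochondrial one-carbon metabolism fell in most cases. Of 17 tested members 11 fell and 2 rose (median -0.62), and without any 1 library but the second of hairpin 3 the members that rose numbered 0 or 1. With all libraries fitted 64.7% fell and 11.8% rose, beside 24.0% and 23.6% of all tested genes. PHGDH, the first enzyme of serine synthesis, was at 333, 422 and 484 CPM in the control libraries and at 113, 142 and 156 CPM with hairpin 3 (-1.59 ± 0.14). PSAT1, the second enzyme, was at 498, 485 and 432 CPM and 151, 142 and 137 CPM (-1.72 ± 0.07). PSPH, which completes the path to serine, fell by less (-0.91 ± 0.08). All 3 steps from glycolysis to serine were lower in each hairpin 3 library than in each control library. In the mitochondrial branch MTHFD2 fell from 697, 682 and 671 CPM to 282, 256 and 259 CPM (-1.36 ± 0.06), and SHMT2, which moves a carbon from serine to folate, by 0.99 ± 0.10 on the log2 scale. ALDH1L2, which oxidises the folate-bound carbon (-1.74 ± 0.32), and GLDC of the glycine cleavage system (-1.45 ± 0.17) were lower at levels of a few CPM.

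Of 17 tested enzymes for asparagine, proline, alanine, aspartate and cysteine 8 fell and 3 rose. The shares were 47.1% and 17.6%, beside 24.0% and 23.6% of all tested genes. The median of these enzymes was -0.27. It was -0.44 without the first control library, where 5 rose, -0.12 without the third, -0.14 without the first hairpin 3 library, -0.42 without the third and -0.08 with length and GC offsets. ASNS, asparagine synthetase, was at 513, 571 and 578 CPM in the control libraries and at 74.3, 80.1 and 84 CPM with hairpin 3 (-2.8 ± 0.07). GOT1, the cytosolic aspartate transaminase, fell from 279, 315 and 343 CPM to 84.5, 90.5 and 96.9 CPM (-1.78 ± 0.09). GPT2, the mitochondrial alanine transaminase (-1.48 ± 0.07), PYCR1, the last enzyme of proline synthesis (-1.26 ± 0.13), and ASS1, which uses aspartate to make argininosuccinate (-1.21 ± 0.15), fell with them. Glutamine synthetase GLUL (0.51 ± 0.08) and ornithine aminotransferase OAT (0.60 ± 0.11) rose.

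Amino acid transporters split. Of 23 tested members 12 fell and 6 rose, with a median of -0.47 (-0.10 with length and GC offsets, -0.31 without the first control library). The shares were 52.2% and 26.1%, beside 24.0% and 23.6% of all tested genes. SLC7A5, the light chain of the large neutral amino acid transporter, was at 719, 682 and 686 CPM in the control libraries and at 164, 176 and 170.0 CPM with hairpin 3 (-2.03 ± 0.06). Its heavy chain SLC3A2 went from 857, 1073 and 1188 CPM to 401, 484 and 521 CPM (-1.15 ± 0.12). SLC6A9, a glycine transporter, went from 24.1, 25.7 and 24.7 CPM to 2.08, 3.1 and 2.66 CPM (-3.24 ± 0.16). SLC1A4, a transporter of small neutral amino acids (-2.11 ± 0.08), and its relative SLC1A5, which also carries glutamine (-1.97 ± 0.08), fell. So did SLC7A1, which carries arginine and lysine (-1.14 ± 0.17). The cystine transporter SLC7A11 was lower (-0.87 ± 0.21, -1.34 with the offsets), with limma on TPM it missed the threshold (-0.72). Among the rises was SLC1A3, a glutamate transporter, from 0.317, 0.259 and 0.319 CPM to 1.5, 1.46 and 1.01 CPM (2.12 ± 0.28).

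Cytosolic aminoacyl-tRNA synthetases, which load tRNAs with their amino acids, fell in most cases. Of 21 tested members 14 fell and 2 rose, with a median of -0.48, and 1 rose without the second or the third control library or the first hairpin 3 library. CARS1, for cysteine, was at 391, 440.2 and 484 CPM in the control libraries and at 82.7, 97.1 and 102 CPM with hairpin 3 (-2.22 ± 0.10). GARS1, for glycine, was at 605, 642 and 644 CPM and 203, 213 and 235 CPM (-1.54 ± 0.06). YARS1 (-1.42 ± 0.08), SARS1 (-1.3 ± 0.09), AARS1 (-1.15 ± 0.06) and MARS1 (-1.04 ± 0.06), for tyrosine, serine, alanine and methionine, fell without overlap between the lines. Of the 17 tested synthetases of mitochondria 3 rose and 3 fell (6 without the first control library, 5 with length and GC offsets, 1 with limma on TPM), and the lowest value among them was -0.41. Over all tested genes 23.6% rose and 24.0% fell, and 2681 of the 3086 falls had no overlap at a mean of at least 1 CPM.

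Stress effectors and brakes of mTORC1, the kinase complex that promotes growth, held several of the largest falls, that of INHBE among them. Of 19 tested members 11 fell and 6 rose, with a median of -0.39 (-0.23 with length and GC offsets). The shares were 57.9% and 31.6%, beside 24.0% and 23.6% of all tested genes. DDIT4, which restrains mTORC1 through TSC2, was at 208, 231 and 241 CPM in the control libraries and at 13.5, 17.9 and 21.5 CPM with hairpin 3 (-3.68 ± 0.14). SESN2, a leucine sensor that restrains mTORC1, was at 285, 314 and 326 CPM and 33.3, 36.8 and 37.8 CPM (-3.1 ± 0.09). The levels of these brakes in the 3 hairpin 3 libraries lay close together and far below the control. CHAC1, which breaks down glutathione, went from 69.2, 80.5 and 91.9 CPM to 5.53, 6.83 and 7.97 CPM (-3.57 ± 0.15). GDF15, a secreted stress hormone, went from 189, 241 and 255 CPM to 27.6, 31.5 and 33.6 CPM (-2.89 ± 0.12). EIF4EBP1, the translation repressor that mTORC1 inactivates, fell from 99.9, 143 and 167 CPM to 31, 48.5 and 49.3 CPM (-1.67 ± 0.19). The sestrins moved apart: SESN1 (0.85 ± 0.12) and SESN3 (1.79 ± 0.26) rose, as did TSC1, a subunit of the complex through which DDIT4 acts (0.52 ± 0.12).

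**Figure D3:**
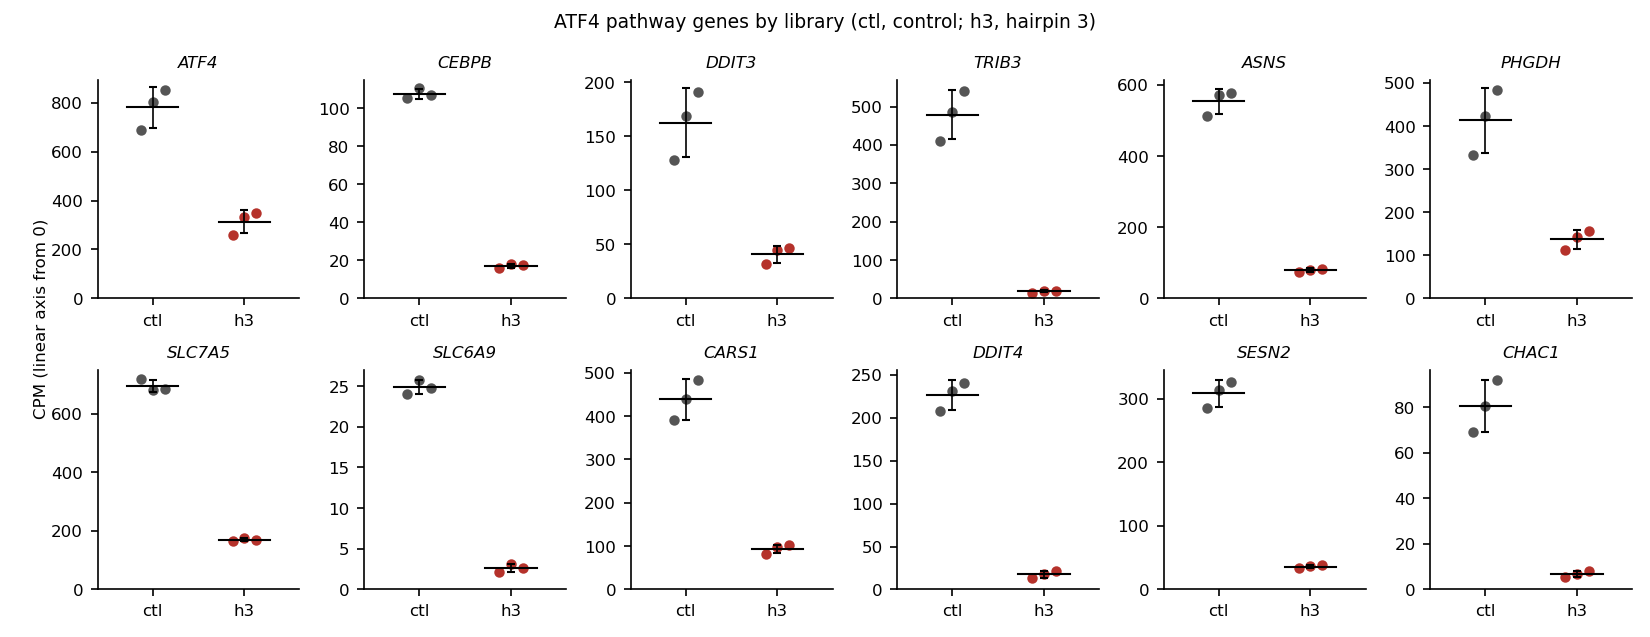
Levels in CPM (linear axes from 0) of 12 genes of the ATF4 pathway in the 3 control (ctl) and 3 hairpin 3 (h3) libraries, with mean and SD (n = 3). In each panel the hairpin 3 libraries lie below all control libraries, from ATF4 with 260 to 348 CPM against 688 to 850 CPM to TRIB3 with 15.1 to 20.4 CPM against 412 to 541 CPM.

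The windows around the starts of 4 of these genes are shown because they hold the motif that ATF4 and its C/EBP partners bind. The motif searched was TGATGNAAN, read on both strands (NTTNCATCA on the other), in the RefSeq windows of 300 bases (250 before to 50 after the start, GRCh38.p14), with the first window taken for the 3062 genes that have several. It was found in the windows of 1.72% of the 10540 tested genes with a window. Of the ATF4 pathway members that were at least 2-fold lower 8 of 32 held it (25%), and of the other members of these lists 10 of 73 did (13.7%). Among all genes at least 2-fold lower with a window it was in 22 of 376 (5.85%), and among those at least 2-fold higher in 12 of 336 (3.57%). The lists were put together with earlier results of these data known, and a match is no evidence of binding in these cells. The 4 with the largest falls are given 5′ to 3′ on the strand of the gene, with the match in capitals. They are CHAC1 (chr15:40953221-40953520, plus strand, match at -210.0 from the start), ASNS (chr7:97872359-97872658, minus strand, -68.0), CARS1 (chr11:3057374-3057673, minus strand, -3.0) and GOT1 (chr10:99430575-99430874, minus strand, -199.0).
CHAC1: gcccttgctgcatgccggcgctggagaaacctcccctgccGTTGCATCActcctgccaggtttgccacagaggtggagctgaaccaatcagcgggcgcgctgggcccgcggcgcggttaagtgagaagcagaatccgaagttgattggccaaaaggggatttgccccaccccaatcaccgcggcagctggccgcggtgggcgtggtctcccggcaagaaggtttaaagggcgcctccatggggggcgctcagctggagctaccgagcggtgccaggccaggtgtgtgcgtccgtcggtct
ASNS: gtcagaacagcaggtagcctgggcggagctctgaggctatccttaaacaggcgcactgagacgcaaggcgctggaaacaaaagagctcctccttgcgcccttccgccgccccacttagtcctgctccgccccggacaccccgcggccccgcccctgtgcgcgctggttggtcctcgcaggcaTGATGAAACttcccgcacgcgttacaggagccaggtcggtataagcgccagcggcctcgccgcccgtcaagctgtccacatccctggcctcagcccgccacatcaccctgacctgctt
CARS1: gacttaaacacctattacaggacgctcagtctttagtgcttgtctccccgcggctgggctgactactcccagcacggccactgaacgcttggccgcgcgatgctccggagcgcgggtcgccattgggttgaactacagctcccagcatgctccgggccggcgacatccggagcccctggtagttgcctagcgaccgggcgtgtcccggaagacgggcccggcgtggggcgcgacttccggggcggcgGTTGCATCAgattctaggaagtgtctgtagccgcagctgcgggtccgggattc
GOT1: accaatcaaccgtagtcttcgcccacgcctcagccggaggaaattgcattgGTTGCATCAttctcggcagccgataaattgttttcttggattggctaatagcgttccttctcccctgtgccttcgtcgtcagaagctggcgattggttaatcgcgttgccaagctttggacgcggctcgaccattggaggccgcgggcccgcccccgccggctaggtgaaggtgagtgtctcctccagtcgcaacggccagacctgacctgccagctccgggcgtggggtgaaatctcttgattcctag

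The match of ASNS reads TGATGAAAC on the strand of the gene, and those of CHAC1, CARS1 and GOT1 read GTTGCATCA there, which is the motif on the opposite strand. The other 4 members with a match and a fall of at least 2-fold were AARS1, SLC3A2, SLC7A1 and MARS1.

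**Figure D4:**
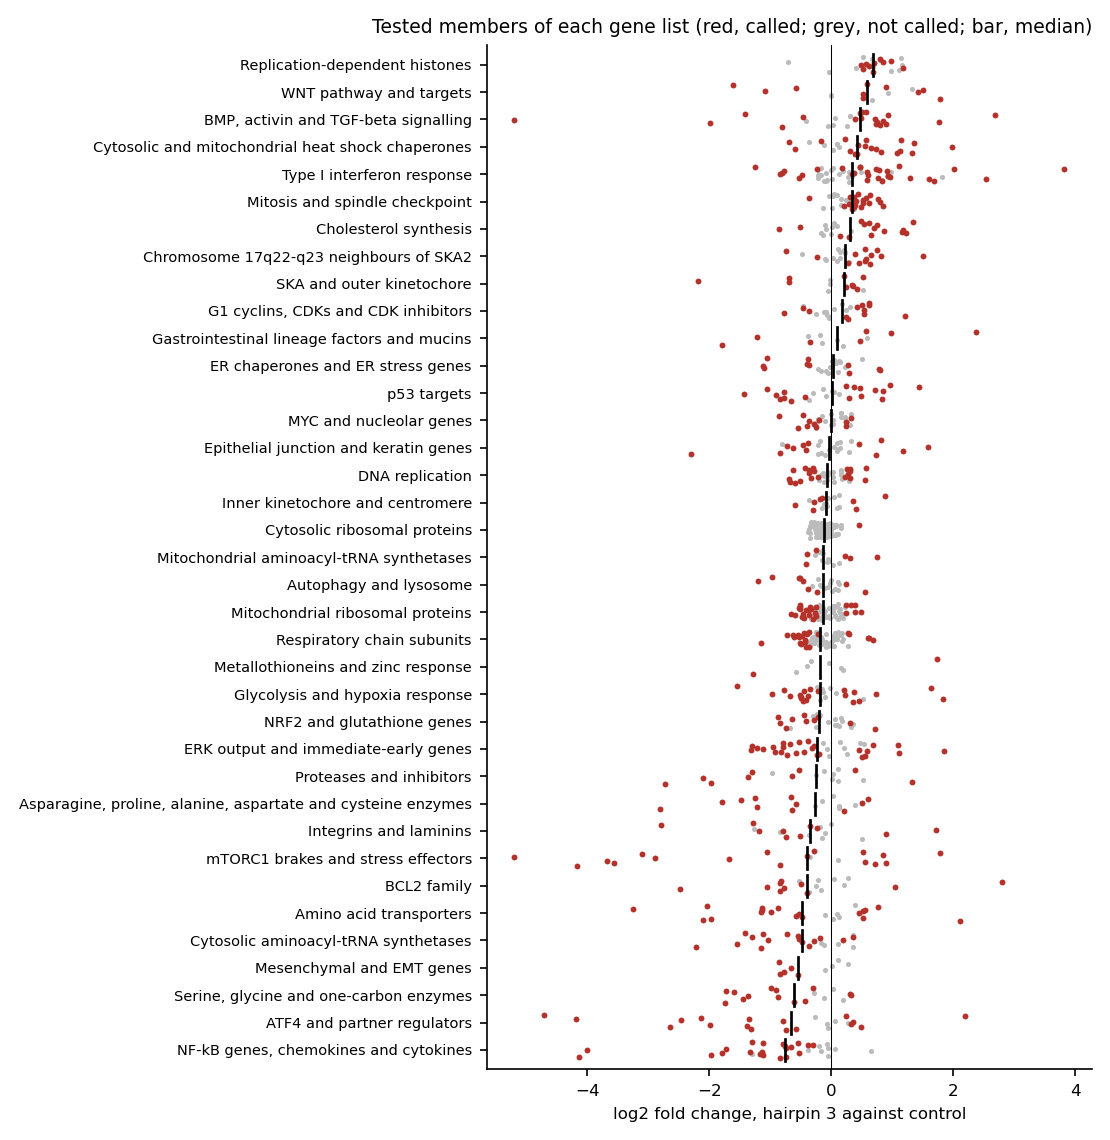
Log2 fold change of hairpin 3 over control (horizontal) for each tested member of the gene lists with at least 5 tested members, cell type markers left out (red, called; grey, not called; black bar, median), ordered by median. The median runs from 0.69 for the replication-dependent histones to -0.75 for the NF-kB genes, chemokines and cytokines. Of the ATF4 pathway, the mitochondrial aminoacyl-tRNA synthetases (-0.13) lie near the middle and the other lists in the lower part.

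Inflammatory genes fell without a single call in the other direction. Of 30 tested members of the list of NF-kB genes, chemokines and cytokines 21 fell and 0 rose (70.0% and 0%, beside 24.0% and 23.6% of all tested genes), with a median of -0.75. NF-kB is the family of transcription factors that turns on genes of inflammation and survival. Beside CCL20 and IL1RL1, the cytokine gene LIF went from 589, 571 and 573 CPM to 168, 181 and 175 CPM (-1.73 ± 0.05). The neutrophil chemokine CXCL8 went from 295, 266 and 232 CPM to 121, 94.3 and 98.3 CPM (-1.34 ± 0.12). CXCL3, whose reads may be shared with its close relatives CXCL1 and CXCL2, went from 116, 123 and 127 CPM to 32.3, 38.6 and 35.3 CPM (-1.78 ± 0.08). CSF2, which encodes a growth factor of myeloid cells, had 48 reads over the 3 control libraries and 12 with hairpin 3 (-1.97 ± 0.47). The hairpin 3 libraries were below the control libraries in each of these genes.

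The adhesion molecule gene ICAM1 fell from 294, 295 and 318 CPM to 129.9, 138 and 147 CPM (-1.13 ± 0.06), and the signalling adaptor gene TRAF1 from 13.7, 12.3 and 12.7 CPM to 4.49, 5.88 and 5.25 CPM (-1.31 ± 0.12). The subunits of NF-kB itself were not alike. RELB (-0.79 ± 0.15) and NFKB2 (-0.75 ± 0.10), which act together in the non-canonical branch, fell, by 0.36 and 0.38 with length and GC offsets. NFKB1, the p105 subunit, was at 104, 92.2 and 88.3 CPM and 106, 98.4 and 94.7 CPM, and the inhibitor NFKBIA at 80.5, 95.1 and 93.7 CPM and 73.3, 93.5 and 93.3 CPM. Their libraries overlapped, with log2 fold changes of 0.07 ± 0.07 and -0.05 ± 0.10 (adjusted p = 0.461 and 0.696 in edgeR). The fall was shared with hairpin 1, where the median of the list against the control was -0.85. Hairpin 3 stood above hairpin 1 in 4 of the 30 members and below it in 2, beside 4.75% and 4.70% of all tested genes. Against hairpin 2 the same list stood lower with hairpin 3 in 21 of 30 members and higher in 3, in a comparison where 31.9% of tested genes were lower and 33.4% higher. ICAM1 was at 289, 280.4 and 285 CPM with hairpin 2, so the difference between these hairpins was -1.04 ± 0.06 (adjusted p = 1e-07 in edgeR).

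Cytosolic chaperones rose in most cases. Of 25 tested heat shock genes 16 rose and 3 fell, with a median of 0.42. The shares were 64% and 12%, beside 23.6% and 24.0% of all tested genes. HSPA8, the constitutive HSP70, was at 1433, 1493 and 1505 CPM in the control libraries and at 3619, 3885 and 3918 CPM with hairpin 3 (1.37 ± 0.06). Its cochaperone DNAJA1 was at 293, 296 and 291 CPM and 629.6, 621 and 616 CPM (1.09 ± 0.05), and HSP90AA1, the inducible HSP90, at 1174, 1115 and 1111 CPM and 1885, 1747 and 1733 CPM (0.66 ± 0.06). The groups did not overlap for any of these abundant chaperones, as in 2451 of the 3036 rises over all tested genes. The inducible HSP70 gene HSPA1A went from 54.6, 69.4 and 76.9 CPM to 231, 279 and 284 CPM (1.98 ± 0.12) and its near-identical copy HSPA1B from 65, 69.1 and 77.9 CPM to 86.5, 114 and 111 CPM (0.56 ± 0.11), so how the reads split between them is uncertain. CHORDC1, which binds HSP90 (1.32 ± 0.11), HSPH1, which recharges HSP70 (1.15 ± 0.09), and DNAJB4 (1.12 ± 0.15) rose too.

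The falls in this list were of another kind. HSPA9, the HSP70 of mitochondria, went from 1416, 1342 and 1330.2 CPM to 885, 832 and 810.3 CPM (-0.69 ± 0.06). HSF1, the factor that turns on heat shock genes, fell from 69.5, 86.5 and 93.6 CPM to 45.1, 60.1 and 60.2 CPM (-0.59 ± 0.13, -0.19 with length and GC offsets), whereas its relative HSF2 rose (0.74 ± 0.11, 0.44 with the offsets). Of 24 tested chaperones and stress genes of the ER 4 rose and 6 fell (9 rose and 8 fell with replicate number as a block in these 6 libraries), with a median of 0.02 (-0.04 with length and GC offsets, 0.19 and 8 higher with limma on TPM, between -0.02 and 0.05 with 1 library left out). With all libraries fitted, 16.7% of these ER genes rose and 25% fell, beside 23.6% and 24.0% of all tested genes. Hairpin 3 stood above hairpin 1 in 10 of the 25 heat shock genes and below it in 0, where 4.75% of all tested genes were above and 4.70% below. DNAJB1, the HSP40 partner of HSPA1A, was among the genes apart with hairpin 3 that are given below.

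Genes of the type I interferon response rose more often than they fell. Of 52 tested members 23 rose and 7 fell (23 and 12 with the block in these 6 libraries, 4 lower without it), with a median of 0.34. With all libraries fitted the shares were 44.2% and 13.5%, beside 23.6% and 24.0% of all tested genes. Members that rose by over 2-fold from levels of a few CPM or less included SAMD9, an antiviral factor, which went from 3.93, 2.84 and 1.4 CPM in the control libraries to 15.2, 9.17 and 8.91 CPM with hairpin 3 (2.02 ± 0.29), and CMPK2, a nucleotide kinase, from 0.253, 0.711 and 0.702 CPM to 2.21, 1.71 and 1.52 CPM (1.69 ± 0.35). IFI44 went from 0.823, 0.711 and 1.28 CPM to 2.34, 2.09 and 2.53 CPM (1.3 ± 0.22). Of the 7 that fell 2 are regulators of the response. TRIM25, the ubiquitin ligase that activates the RNA sensor RIG-I, fell from 502, 439.7 and 399.8 CPM to 216, 179 and 169 CPM (-1.25 ± 0.10), and IRF7, the factor that amplifies the response, from 54.9, 61.9 and 72.4 CPM to 28.6, 38.4 and 38.3 CPM (-0.85 ± 0.12, -0.42 with length and GC offsets). Against hairpin 2, 36 of the 52 members were called lower with hairpin 3 and 3 higher, beside 31.9% and 33.4% of all tested genes. The expression filter ran over all 4 lines, and 44 members were tested in a fit of only these 6 libraries. A member that passed only through its level in another line is lower with hairpin 3 by that choice, so no conclusion is drawn from this count.

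Replication-dependent histone genes, whose transcripts carry no poly(A) tail in dividing cells and so are seen only in part in poly(A)-selected RNA, rose in 10 of 21 tested members and fell in 0 (median 0.69, 5 higher in a fit of only these 6 libraries). The share that rose was 47.6%, beside 23.6% of all tested genes. A further 21 of the 42 listed genes were too low to be tested. Reads of these close relatives may be shared between them. H2BC12 was at 20.1, 26.3 and 27.5 CPM in the control libraries and at 30.5, 40.7 and 41.9 CPM with hairpin 3 (0.61 ± 0.14), H2BC5 at 4.5, 5.36 and 6.38 CPM and 8.78, 8.67 and 8.91 CPM (0.70 ± 0.13), and the linker histone gene H1-2 at 8.17, 9.63 and 11 CPM and 12.4, 17.4 and 16.6 CPM (0.69 ± 0.16). The groups did not overlap in these 3 genes, as in 2451 of the 3036 rises over all tested genes.

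Immediate-early genes and targets of the ERK kinases were split, with 19 of 35 tested members lower and 8 higher (median -0.24, -0.07 and 12 lower with limma on TPM). By share 54.3% were lower and 22.9% higher, beside 24.0% and 23.6% of all tested genes. Immediate-early genes are turned on within minutes of a growth signal. FOS, a subunit of the AP-1 transcription factor, rose from 27.3, 28.3 and 30.4 CPM in the control libraries to 96.5, 107 and 108 CPM with hairpin 3 (1.85 ± 0.07). EGR3 rose from 19.6, 18.4 and 13.4 CPM to 39.6, 36.9 and 34.8 CPM (1.12 ± 0.14), and the nuclear receptor gene NR4A2 from 10.01, 8.66 and 7.97 CPM to 19.2, 19.3 and 18.3 CPM (1.09 ± 0.11). Another AP-1 subunit moved the opposite way: FOSL1 fell from 870.5, 1020.2 and 1107 CPM to 342, 436 and 431 CPM (-1.31 ± 0.10). JUND, a binding partner of both (-1.22 ± 0.16, -0.69 with length and GC offsets), the survival gene IER3 (-1.11 ± 0.09) and KLF6 (-1.3 ± 0.14) fell with it.

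Mitotic genes rose modestly with hairpin 3. Of 31 tested genes of mitosis and the spindle checkpoint 19 rose and 1 fell, with a median of 0.34 (0.17 with length and GC offsets, 16 higher and 1 lower). With all libraries fitted 61.3% rose and 3.23% fell, beside 23.6% and 24.0% of all tested genes. Without the first control library 2 fell, and in a fit of only these 6 libraries 10 rose. CCNA2, cyclin A of S phase and G2, was at 93.9, 93.3 and 92.1 CPM in the control libraries and at 179, 164 and 161 CPM with hairpin 3 (0.85 ± 0.08, 0.55 with the offsets). KIF20A, a kinesin of cytokinesis, was at 57.4, 52.5 and 52.7 CPM and 96.5, 88.5 and 92.6 CPM (0.77 ± 0.07). In both genes all hairpin 3 libraries were above all control libraries, as in 2451 of the 3036 rises over all tested genes. CENPF, a kinetochore protein, went from 308, 224 and 210.0 CPM to 562, 374 and 357 CPM (0.80 ± 0.17), and the topoisomerase TOP2A from 762, 586 and 547 CPM to 1267, 865 and 821 CPM (0.64 ± 0.16, 0.36 with the offsets, 0.42 without the first hairpin 3 library), which missed the threshold in a fit of only these 6 libraries. The member that fell was KIF2C, a kinesin that takes microtubules apart (-0.36 ± 0.06).

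The same genes set hairpin 3 apart from hairpin 2. All 31 tested mitotic genes were higher with hairpin 3 than with hairpin 2, as were 37 of the 38 tested DNA replication genes and 11 of the 13 genes of the outer kinetochore, in a comparison where 33.4% of all tested genes were higher. CCNA2 was at 32.6, 36.5 and 41.2 CPM with hairpin 2, a difference of 2.19 ± 0.09 (adjusted p = 5.5e-09 in edgeR). SKA1 was at 18.8, 18.4 and 20.03 CPM (1.38 ± 0.07) and SKA3 at 21.8, 18.8 and 20.7 CPM (2.04 ± 0.07). The level of SKA2 was 23.3, 25.3 and 27.2 CPM with hairpin 2, and the difference of hairpin 3 from it was 0.07 ± 0.08 (adjusted p = 0.452 in edgeR). The lines of hairpins 2 and 3 thus differed in the partners of SKA2 and in mitotic genes, while a difference in SKA2 itself was not detectable. Against the control, 8 DNA replication genes rose with hairpin 3 and 12 fell. These were 21.1% and 31.6% of the 38 tested, beside 23.6% and 24.0% of all tested genes. Without the third control library or the first hairpin 3 library 5 rose, and a fit of only these 6 libraries called 4 and 6. The median of -0.06 turned to 0.11 with limma on log2(TPM + 1), and it was -0.0087 with length and GC offsets.

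Genes of the BCL2 family, which decide on the release of cytochrome c from mitochondria, fell in 8 of 19 tested members and rose in 2 (median -0.39, -0.16 with limma on TPM, 13 lower with the block in these 6 libraries). The genes that rose were both BH3-only promoters of apoptosis: BMF, given above, and BCL2L11, which encodes BIM, from 26.9, 22.8 and 20.3 CPM to 54.4, 45.4 and 44.8 CPM (1.05 ± 0.11). BCL2A1, a survival member that NF-kB turns on, fell from 27.4, 32.6 and 34.4 CPM to 5.07, 5.06 and 6.83 CPM (-2.48 ± 0.15), and the survival gene BCL2L2 from 79.7, 73.5 and 67.2 CPM to 37.5, 34.4 and 34.6 CPM (-1.05 ± 0.08). BBC3, a BH3-only target of p53 and of CHOP, fell as well (-0.84 ± 0.16, -0.48 with length and GC offsets). Members that promote and members that oppose apoptosis were thus found among the falls. The falls made up 42.1% of the tested members and the rises 10.5%, beside 24.0% and 23.6% of all tested genes.

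In a fit of only these 6 libraries 5 of the 25 tested targets of p53 rose. With all libraries fitted 10 targets rose and 8 fell (40% and 32%, beside 23.6% and 24.0% of all tested genes). Their median of 0.01 has no stable sign: it was 0.23 without the first control library, -0.06 without the second, -0.14 without the third, -0.15 without the first hairpin 3 library, 0.10 and 0.12 without the second and the third, 0.11 with limma on TPM and -0.07 with length and GC offsets. TP53INP1 rose from 20.6, 15.1 and 11.9 CPM to 51.2, 41.8 and 35.7 CPM (1.43 ± 0.17). GADD45A, a stress gene that ATF4 can also turn on, fell from 218, 251 and 248 CPM to 85.5, 92.1 and 87.4 CPM (-1.44 ± 0.08), and CDKN1A, the inhibitor p21 of cyclin-dependent kinases, from 226, 254 and 243 CPM to 127, 149.9 and 143 CPM (-0.78 ± 0.07). None of these 3 genes overlapped between the lines, which held for 2451 of the 3036 rises and 2681 of the 3086 falls over all tested genes.

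Among signalling pathways of development, 14 of 27 tested genes of BMP, activin and TGF-beta signalling rose and 5 fell, with a median of 0.47 (0.29 with length and GC offsets). Rises made up 51.9% of this list and falls 18.5%, beside 23.6% and 24.0% of all tested genes. The list holds INHBE and SMAD6, which are among the largest changes above. ID2, a target of BMP signalling that blocks differentiation factors, went from 30.3, 35.6 and 37.1 CPM in the control libraries to 108, 119.7 and 124 CPM with hairpin 3 (1.77 ± 0.08), and the inhibitory SMAD7 from 14.1, 13.3 and 9.19 CPM to 23, 22.7 and 24.4 CPM (0.94 ± 0.13). The ligand TGFB1 fell from 135, 153 and 167 CPM to 46.4, 59.3 and 65 CPM (-1.41 ± 0.12), and FST, the activin antagonist follistatin, from 32.5, 31.9 and 30.4 CPM to 8.59, 8.16 and 7.21 CPM (-1.98 ± 0.09). In the WNT list 7 of 15 tested members rose and 3 fell (46.7% and 20%, median 0.58). AXIN2, a feedback inhibitor that WNT signalling turns on, went from 36.5, 28.4 and 25.1 CPM to 111, 105 and 95.5 CPM (1.79 ± 0.11), and NKD1, another feedback gene, from 23.4, 20.1 and 18.4 CPM to 67.1, 51.4 and 47.5 CPM (1.42 ± 0.13). RNF43, which removes WNT receptors and lies near SKA2 on the same chromosome, rose at a low level (1.5 ± 0.17), and the ligand gene WNT7B fell (-1.61 ± 0.16).

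Of 25 tested neighbours of SKA2 in bands 17q22 to 17q23 11 rose and 2 fell, with a median of 0.23 (0.39 without the first control library). With all libraries fitted 44% rose and 8% fell, beside 23.6% and 24.0% of all tested genes. Without the second or the third control library, or the first or second hairpin 3 library, 1 fell. No tested neighbour fell as far as SKA2, whose own log2 fold change was -2.18. The lowest value among them was -0.75 and the highest, that of RNF43, was 1.5.

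Enzymes of cholesterol synthesis rose in 13 of 24 tested members and fell in 2 (median 0.31, 1 lower without the second or the third control library or the first hairpin 3 library). With all libraries fitted the shares were 54.2% and 8.33%, beside 23.6% and 24.0% of all tested genes. HMGCS1, which makes HMG-CoA, was at 66.9, 58 and 51.8 CPM in the control libraries and at 156, 125 and 117 CPM with hairpin 3 (1.17 ± 0.11), and SQLE, which makes squalene epoxide, at 53.1, 44 and 36.7 CPM and 78.3, 65.5 and 62.7 CPM (0.63 ± 0.12). INSIG1, the sterol-sensing brake on the pathway, rose from 21.7, 22.9 and 22.8 CPM to 49.3, 52 and 51.6 CPM (1.18 ± 0.06). In each of these 3 genes all hairpin 3 libraries were above all control libraries, as in 2451 of the 3036 rises over all tested genes.

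Epithelial genes were called about as often as all tested genes (18.5% higher and 25.9% lower, beside 23.6% and 24.0%). Of 27 tested junction and keratin genes 5 rose and 7 fell, with a median of -0.03 (0.03 and 9 higher with length and GC offsets, 0.09 and 8 higher with limma on TPM, between -0.09 and 0.02 with 1 library left out, 4 lower in a fit of only these 6 libraries). EPCAM, an epithelial adhesion molecule, was at 238, 266 and 275 CPM and 261, 279 and 297 CPM (0.10 ± 0.07, adjusted p = 0.266 in edgeR), and it passed the test with limma on TPM (0.26) and with replicate number as a block in these 6 libraries (0.10). Keratin gene KRT18 fell from 927, 1194 and 1339.5 CPM to 600.0, 799.9 and 850.3 CPM (-0.62 ± 0.14) and the tight junction gene CLDN7 from 90.6, 107 and 117 CPM to 49, 62.3 and 64.7 CPM (-0.84 ± 0.11). CDH1 rose from a low level of 4.69, 4.4 and 4.59 CPM to 8.46, 8.23 and 6.13 CPM (0.74 ± 0.18). Of 9 tested mesenchymal genes 5 fell and 0 rose, and 1 rose with length and GC offsets, with limma on TPM and without the first control or the first hairpin 3 library.

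Where hairpin 3 differed from both other hairpins as well as from the control was tested directly. Against hairpin 1, 611 genes were higher with hairpin 3 (4.75%) and 605 lower (4.70%), and against hairpin 2, 4295 were higher and 4105 lower. The former counts rest on single libraries: they were 2536 and 2731 without the first hairpin 3 library, 120 and 135 without the second, 118 and 157 without the third, 1339 and 1291 without the first control library and 333 and 357 without the second. Called in the same direction against all 3 other lines were 130 genes higher (1.01% of those tested) and 144 lower (1.12%). These numbers were 330 and 397 without the first hairpin 3 library, 29 and 50 without the second, 28 and 53 without the third and 75 and 93 without the second control library. Of them 118 and 132 had all 3 hairpin 3 libraries outside the range of the other 9, at an average of at least 1 CPM.

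FOS was among the 6 genes named as higher with hairpin 3. The libraries of hairpin 1 held 7.19, 6.16 and 6.6 CPM and those of hairpin 2 held 57.1, 56.4 and 56.5 CPM, beside the control and hairpin 3 values above. The differences of hairpin 3 from these lines were 3.96 ± 0.09 and 0.87 ± 0.07. FOS thus ran from below the control with hairpin 1 to above it with hairpin 3. ANXA1, an anti-inflammatory phospholipid-binding protein, had 49.2, 52.9 and 54 CPM in the control and 104, 118 and 123 CPM with hairpin 3, beside 68.8, 63.9 and 68.4 CPM (hairpin 1) and 57.2, 54.4 and 54.8 CPM (hairpin 2). It differed by 0.78 ± 0.08 from hairpin 1 and by 1.05 ± 0.08 from hairpin 2. The chaperone gene DNAJB1 was at 88.3, 94.3 and 91.9, 100.1, 111 and 106, 91.5, 86.8 and 88.9 and 147, 164 and 172 CPM in the same order. It was higher with hairpin 3 by 0.82 ± 0.07 than in the control and by 0.61 ± 0.07 and 0.85 ± 0.07 than with hairpins 1 and 2.

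The other genes named as higher were DYNLT2B and DNAI4, which encode dynein subunits of cilia, and OSCP1. Their hairpin 3 libraries held 5.92, 7.72 and 6.95 CPM, 5.2, 4.37 and 5.5 CPM and 16.5, 19.4 and 20.2 CPM. Their differences from hairpin 1 were 1.03 ± 0.21, 0.64 ± 0.18 and 0.75 ± 0.15. These calls were lost without the second or the third hairpin 3 library (DYNLT2B 0.94 and 1.02, DNAI4 0.73 and 0.57, OSCP1 0.72 and 0.69), and that of DNAI4 also without the second control library (0.64).

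Among the genes lower with hairpin 3, ADAM12, a membrane metalloprotease, had 15.8, 15.3 and 11.9 CPM in the control and 5.79, 4.75 and 4.99 CPM with hairpin 3, beside 11.6, 14.7 and 11.7 CPM (hairpin 1) and 14, 14 and 14.8 CPM (hairpin 2). Its hairpin 3 libraries were lower than the other 9, as its choice required, and the other 9 overlapped. The differences were -1.47 ± 0.14, -1.29 ± 0.14 and -1.46 ± 0.14. LOXL4, an enzyme that crosslinks collagen, was at 1.76, 2.09 and 1.52 CPM with hairpin 3 and lower than in the control by 1.82 ± 0.17 on the log2 scale, than with hairpin 1 by 1.04 ± 0.18 and than with hairpin 2 by 1.79 ± 0.17. FGFRL1, a fibroblast growth factor receptor without a kinase domain, fell in all 3 hairpin lines and the furthest with hairpin 3, with 15.8, 18 and 14.9 CPM beside 60.03, 61.4 and 62.8 CPM in the control. The libraries of hairpin 1 held 32.2, 27.8 and 29.2 CPM, and those of hairpin 2 held 28.7, 29 and 29.3 CPM.

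BIRC3, an inhibitor of apoptosis that NF-kB turns on, had 293, 218 and 193 CPM in the control and 166, 113 and 117 CPM with hairpin 3, beside 248, 239.8 and 240.0 CPM (hairpin 1) and 655, 719 and 781 CPM (hairpin 2). It was thus raised with hairpin 2 and lowered with hairpin 3. Its difference from hairpin 1 (-0.88 ± 0.16), that of the kinase gene LRRK1 (-1.01 ± 0.23) and that of CMTM4, a membrane protein gene (-0.81 ± 0.16), passed the test, but each missed it without the second (-0.78, -0.99 and -0.71) or the third hairpin 3 library (-0.80, -0.89 and -0.74). LRRK1 spread over 1325, 817 and 604 CPM in the control, with the first library the highest.

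**Figure D5:**
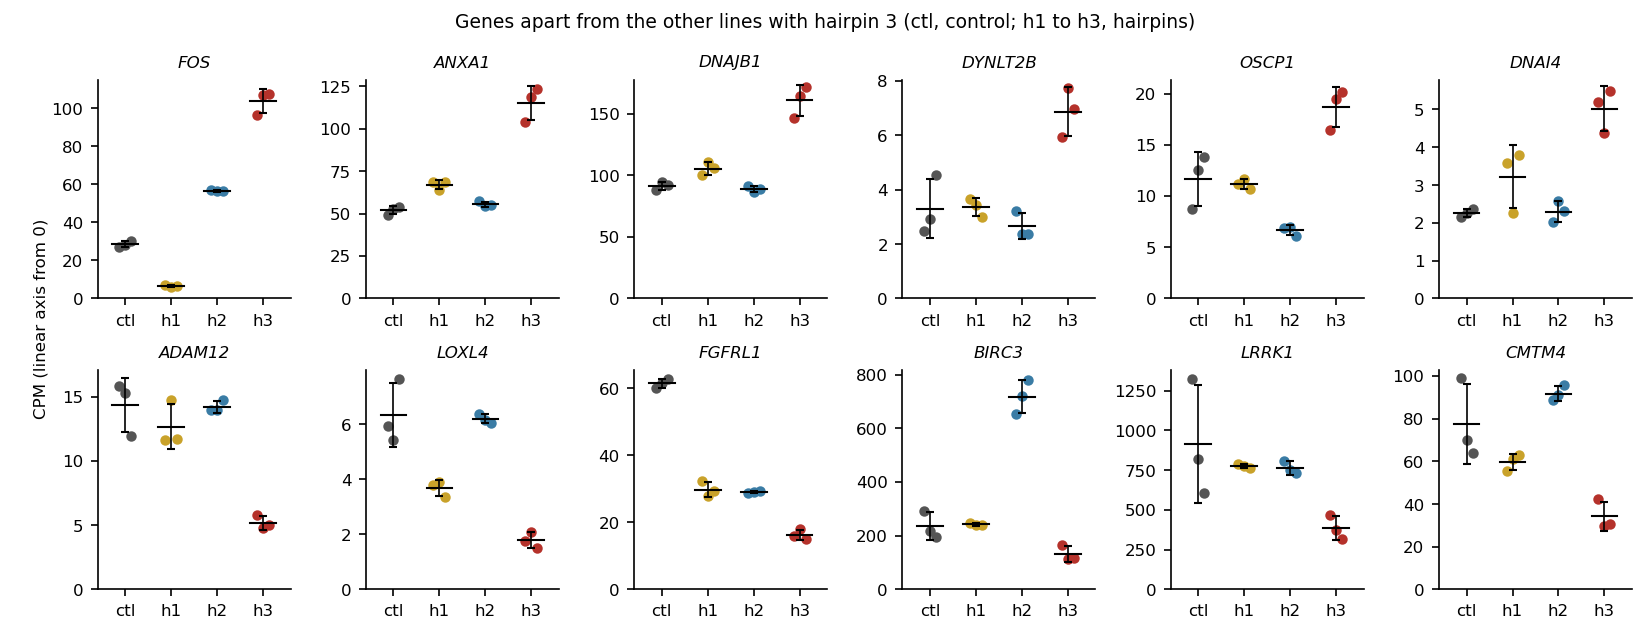
Levels in CPM (linear axes from 0) of the 6 genes higher (top row) and the 6 genes lower (bottom row) with hairpin 3 than in all 3 other lines, for each of the 12 libraries, with mean and SD (n = 3; ctl, control; h1 to h3, hairpins). In each panel the 3 hairpin 3 libraries lie outside the range of the other 9, which was a condition of the choice of these genes, as for FOS with 96.5 to 108 CPM.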

How the data were processed

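Poly(A)-enriched RNA was sequenced on the BGISEQ-500 platform. The authors deposited 1 table of expected counts and TPM (scaled for transcript length and library total) per gene and library, per the file headers. HISAT, Bowtie2, RSEM, DESeq2 and the build GRCh38.p13 are named in the submitters' processing notes, with roles, versions and settings not given in the sources used here. No step that marks strand is named in the labels' protocols, so a gene and an antisense partner cannot be told apart. In the deposited expected counts between 81.8% and 83.6% of values above 0 were whole, and all were rounded. A further 27 columns of the table were not used.

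Library groups came from the titles. Genes with enough counts by edgeR's filterByExpr over the 4 lines were kept, scaled by TMM and fitted with edgeR's quasi-likelihood test (edgeR 4.0.16, R 4.3.3) over all 12 libraries, 1 mean per line, with 8 residual degrees of freedom. The p-values were adjusted by Benjamini and Hochberg over the 12868 tested genes, and SE is the log2 fold change divided by the square root of F. The edgeR fit was first run on simulated counts with known changes. The simulated libraries had no GC trend and none stood apart from its line, so the run does not show how the fit handles these. Named are SKA2, SKA1, SKA3, PRR11, the 12 largest rises and falls among called genes with a mean of at least 1 CPM and no overlap, up to 6 members of each list with the smallest p, members described by role, and the 6 genes furthest apart in each direction with hairpin 3. Some genes that this rule names are not reported here. The members and lists were chosen with earlier results of these data known. Alternatives were DESeq2 size factors, the DESeq2 (1.42.0) Wald test, no expression filter, the 6 libraries alone, replicate number as a block, offsets for each library's trend along length and GC content, limma (3.58.1) on log2(TPM + 1), and leaving out each library.

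Control and hairpin 3 libraries of the same number deviated together from their line's mean, with correlations over genes of 0.73, 0.17 and 0.60 for numbers 1 to 3, each over 0.1, which was taken as a sign of pairing. Between unlike numbers they ran from -0.67 to 0.39, and the second hairpin 3 library was closer to the third control library (0.39) than to the second. The second control library and the third hairpin 3 library had 0.23. The mark of 0.1 thus did not separate like from unlike numbers, and pairing was not established. Whether the libraries were paired is not stated in the labels.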

Additional observations from a re-analysis of the deposited data

Results flagged for a closer look

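Each gene here was called against the control in opposite directions with hairpin 3 and with another hairpin, and the difference between the hairpins itself passed edgeR's quasi-likelihood test. The 2 changes share their control libraries. Only genes named by rule or chosen for the text were searched, so the number and kinds of genes here follow that choice. How many of all tested genes meet these conditions was not counted. Against hairpin 2, 33.4% of all tested genes were higher with hairpin 3 and 31.9% lower. No explanation was weighed.

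Of them, 5 genes were lower than the control with hairpin 3 and higher with hairpin 2. Of the whole list of NF-kB genes, chemokines and cytokines 14 of 30 members were higher and 9 lower than the control with hairpin 2. The log2 fold changes were -1.31 and 1.45 for TRAF1, with a difference of -2.75 ± 0.12, and -0.83 and 1.61 for BIRC3, with a difference of -2.44 ± 0.17. For NFKB2 they were -0.75 and 0.30 (difference -1.04 ± 0.10) and for BCL2L2 -1.05 and 0.96 (difference -2.01 ± 0.08). MYCT1, at 8 reads over the 3 hairpin 3 libraries, had -3.77 and 0.67 (difference -4.44 ± 0.36).

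Other genes of the text, mitotic ones among them, were higher with hairpin 3 and lower with hairpin 2. CCNA2 had log2 fold changes of 0.85 and -1.34 (difference 2.19 ± 0.09), KIF20A 0.77 and -1.12 (1.89 ± 0.07), TOP2A 0.64 and -1.08 (1.72 ± 0.16) and CENPF 0.80 and -0.62 (1.42 ± 0.17). NDC80 had 0.24 and -1.70 (1.94 ± 0.07), where the rise with hairpin 3 was lost with length and GC offsets. The chaperone gene HSP90AA1 (0.66 and -0.27, difference 0.93 ± 0.06), CDH1 (0.74 and -1.04, 1.77 ± 0.20) and OSCP1 (0.68 and -0.80, 1.48 ± 0.15) showed the same order.

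Against hairpin 1, FOS rose with hairpin 3 and fell with hairpin 1 (1.85 and -2.11, difference 3.96 ± 0.09), and so did the histone gene H2BC21 (0.48 and -0.31, difference 0.79 ± 0.10). The largest of the 15 adjusted p-values of these differences was 0.00162 (edgeR).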

How the results depend on the processing

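Of the counts of called genes 108 values under an alternative stayed within 1.5 times of the reported one and 46 did not, of the values of named genes 2899 kept direction and call, 25 lost the call, 8 gained one and 2 turned, and of the list medians 512 stayed within the spread between libraries, 124 moved further and 10 turned. SKA2 fell under each alternative. A fit of only the 2 groups compared gave 1590 higher and 1868 lower against control, 144 and 192 against hairpin 1, and 30 and 50 apart. Length and GC offsets gave 1345 and 1212 against hairpin 1 and 250 and 275 apart. The DESeq2 Wald test gave 1073 higher against hairpin 1 and 202 higher apart. With limma on log2(TPM + 1), which shrinks low genes by construction, 240 and 227 changed at least 2-fold, 242 and 1332 differed from hairpin 1, 2469 were higher than with hairpin 2, and 65 and 265 were apart. The replicate block gave 3149 higher and 3152 lower against control over all libraries, changed no call of a named gene, and in the 6 libraries alone, an alternative chosen after seeing the data, gave 4487 and 4436. A further 2 were chosen after seeing the data. The replicate block with length and GC offsets gave 1532 and 1428 against hairpin 1 and 262 and 297 apart. Leaving out both first libraries gave 3664 and 3751 against hairpin 1 and 513 and 470 apart. Leaving out 1 library gave between 314 and 699 genes at least 2-fold higher, between 118 and 2536 higher and 135 and 2731 lower against hairpin 1, and between 28 and 330 higher and 50 and 397 lower apart. NDC80 turned to -0.020 with the offsets and -0.020 with block and offsets. List medians that changed sign with limma were 0.071 and 0.076 for the inner kinetochore (pseudocounts 1 and 0.1), 0.11 and 0.11 for DNA replication, 0.048 and 0.050 for mitochondrial synthetases, 0.0039 and 0.0077 for glycolysis and 0.022 and 0.023 for autophagy. Of the medians that lay within the spread between libraries of 0, more did so: with pseudocount 1 the cytosolic ribosomal proteins were at 0.040, the mitochondrial ones at 0.015, MYC and nucleolar genes at 0.149 and epithelial genes at 0.095. The median of all genes with limma was 0.124. Where no cause is given, the cause was not tested. Depth limits genes of a few reads, such as ROBO4.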

Other observations

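Members of the lists of extracellular proteases and of matrix receptors fell more often than they rose. Of the proteases and inhibitors 41.2% fell and 11.8% rose, and of the integrins and laminins 44.4% and 11.1%. Over all tested genes 24.0% fell and 23.6% rose. Of 17 tested proteases and inhibitors 7 fell and 2 rose, with a median of -0.25 (-0.04 without the first control library, -0.06 with limma on TPM). PLAU, which encodes urokinase, was at 197, 206 and 207 CPM in the control libraries and at 47, 48 and 47 CPM with hairpin 3 (-2.1 ± 0.07), and its receptor PLAUR at 73.7, 88.9 and 94.4 CPM and 28.4, 35.7 and 36 CPM (-1.36 ± 0.11). The collagenase gene MMP1 went from 83.5, 93.1 and 99.4 CPM to 12.6, 13.5 and 15.6 CPM (-2.73 ± 0.13). No hairpin 3 library overlapped the control for these 3 genes. At a mean of at least 1 CPM this held for 2681 of the 3086 falls over all tested genes. Of 18 tested integrins and laminins 8 fell and 2 rose. LAMB3 went from 18, 19.7 and 19.6 CPM to 2.41, 2.59 and 3.22 CPM (-2.8 ± 0.12). It encodes the beta chain of laminin-332. The integrin gene ITGB5 fell by 1.18 on the log2 scale. The mesenchymal genes that fell included the receptor kinase gene AXL, from 698, 637 and 619.7 CPM to 369, 365 and 354 CPM (-0.84 ± 0.06).

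Of 13 tested lineage factors 4 were higher and 3 lower (30.8% and 23.1%, beside 23.6% and 24.0% of all tested genes). SOX2, a factor of the stomach and of stem cells, went from 1.39, 1.23 and 1.34 CPM to 7.42, 6.83 and 6.32 CPM (2.37 ± 0.15), whereas KLF5, a factor of proliferating epithelium, fell (-1.22 ± 0.11), as did FOXA2 (-1.78 ± 0.18). Of 29 tested genes of glycolysis and hypoxia 8 rose and 13 fell (4 and 5 in a fit of only these 6 libraries, 9 and 9 with limma on TPM). With all libraries fitted these were 27.6% and 44.8%, beside 23.6% and 24.0% of all tested genes. The glucose transporter gene SLC2A3 rose from 29.5, 28.8 and 24.9 CPM to 88.9, 84.9 and 85.1 CPM (1.64 ± 0.07), while VEGFA, the growth factor of blood vessels, fell from 103, 89.1 and 85.9 CPM to 36, 28.5 and 30.5 CPM (-1.55 ± 0.09). MAP1LC3B, which coats autophagosomes, fell from 358, 362 and 352 CPM to 152, 158 and 157 CPM (-1.2 ± 0.05). Of 22 tested autophagy and lysosome genes 7 fell and 2 rose (31.8% and 9.09%, beside 24.0% and 23.6% of all tested genes). The counts were 4 and 1 in a fit of only these 6 libraries and 4 and 4 with limma on TPM. Without any single library but the first of hairpin 3, 1 rose.

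Of 77 cytosolic ribosomal protein genes 1 was higher and 0 lower than the control in edgeR's test over all libraries, with a median of -0.11. The median was -0.27 without the first control library, 0.04 without the third control or the first hairpin 3 library, -0.22 without the third hairpin 3 library and 0.04 with limma on TPM, which called 11 higher and 2 lower. Without the first control library 24 were lower, without the third hairpin 3 library 5, with the block in these 6 libraries 43 were lower and 7 higher, and the DESeq2 Wald test called 2 lower. Against hairpin 2, 73 of the 77 were higher with hairpin 3, in a comparison where 33.4% of all tested genes were higher. Respiratory chain subunits fell in 22.4% of tested members and mitochondrial ribosomal proteins in 23.1%, both near the 24.0% of all tested genes. They rose in 6.58% and 7.69%, beside 23.6% of all tested genes. Of 76 tested respiratory chain subunits 17 fell and 5 rose (37 fell without the first control library and 9 without the third, 16 rose with limma on TPM, 42 fell and 12 rose with the block in these 6 libraries, and 4 fell there without it), and of 78 mitochondrial ribosomal proteins 18 fell and 6 rose (33 fell without the first control library, between 8 and 9 without the second, the third or the first hairpin 3 library, 17 rose and 10 fell with limma on TPM, 39 fell and 14 rose with the block in these 6 libraries, and 5 fell and 1 rose there without it).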
